A study of Homo sapiens with 12 samples.

Results

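Synaptotagmins and other genes of regulated vesicle exocytosis were examined in RNA-seq of derivatives of CWR22Rv1, an established human prostate carcinoma cell line that was derived from a relapsed xenograft. The 9 genes were SYT4, SYT1, SYT7, SYT11 and SYT13 (synaptotagmins), SYP (synaptophysin), SNAP25 and STX1A (SNARE proteins) and RAB3A (a vesicle GTPase). They were picked by symbol, with earlier results of these data known, for their levels over the 4 groups, so their own values are given as a description and without p-values. Of these, 7 were among the 13951 genes analysed. SYT11 and SYT13 are not listed there and were not analysed here. The authors kept genes that reached a minimum count within 1 group, so a listed gene could have passed through the group in which it was highest. The 12 libraries form 4 groups of 3: Control cells, which carried Cas9 and received no guide RNA, LV-MEIS1 cells with exogenous MEIS1 from a lentivirus, HOXB13ko cells made by CRISPR, and HOXB13ko-LV-MEIS1 cells with both alterations. All lines were kept in puromycin and were cultured for 48 h before RNA was harvested. The knockout line was a pool of re-combined clones and was the parent of the HOXB13ko-LV-MEIS1 line. Each group is therefore 1 derived line. The labels do not say whether the 3 libraries of a group came from separate cultures, so the errors measure only the spread between these libraries, which may be technical.

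Regulated exocytosis releases the contents of a vesicle when calcium enters the cell. RAB3 GTPases and their partners bring vesicles to the plasma membrane, UNC13 proteins prime them, and a SNARE complex of syntaxin-1, SNAP-25 and a VAMP protein fuses the membranes, while synaptotagmins sense the calcium. Neurons and endocrine cells use this machinery for transmitters and hormones, and synaptophysin is a standard histological marker of neuroendocrine differentiation in prostate tumours.

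SYT4 had no overlap between any of the 4 groups, while SYP and STX1A were both lower than Control in each altered line. For that reason the sequences of their 3 promoters are shown. They are the 250 bases before the RefSeq gene start (GRCh38.p14), 5′ to 3′ on the strand of the gene. RefSeq promoters were matched by symbol for 6 of the 9 genes. SYT7, SYT13 and SNAP25 had no entry. Capitals mark the only match among the 3 motifs searched.
SYT4: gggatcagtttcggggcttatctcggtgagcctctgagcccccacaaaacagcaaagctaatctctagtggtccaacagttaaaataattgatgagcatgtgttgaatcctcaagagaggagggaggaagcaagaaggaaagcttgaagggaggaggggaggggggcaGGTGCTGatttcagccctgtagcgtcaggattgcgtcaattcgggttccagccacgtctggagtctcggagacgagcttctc
SYP: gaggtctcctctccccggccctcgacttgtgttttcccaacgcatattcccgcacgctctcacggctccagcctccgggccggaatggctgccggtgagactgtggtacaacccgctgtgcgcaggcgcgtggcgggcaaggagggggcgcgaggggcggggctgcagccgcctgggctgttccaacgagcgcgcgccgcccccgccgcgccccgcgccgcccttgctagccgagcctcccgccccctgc
STX1A: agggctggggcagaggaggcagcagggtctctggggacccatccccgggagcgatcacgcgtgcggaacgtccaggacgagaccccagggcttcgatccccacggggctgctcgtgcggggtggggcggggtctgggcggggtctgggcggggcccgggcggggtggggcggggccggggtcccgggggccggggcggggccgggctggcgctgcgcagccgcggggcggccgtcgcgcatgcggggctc
The SYT4 sequence covers chr18:43277491-43277740, that of SYP chrX:49200194-49200443 and that of STX1A chr7:73719670-73719919, all on the minus strand. The GENCODE positions given below place these starts differently, at 43277535, 49200218 and 73719672, which lie inside the windows. Distances here are counted from the RefSeq start. The motifs were TGACAG, a core bound by MEIS factors, CAATAAA, a core bound by HOXB13, and CAGCACC, the left part of the RE1 element bound by REST, a repressor of neuronal genes. They were searched on both strands and none contains another. TGACAG occurred in 13.03% of 35116 windows of this length, CAATAAA in 3.67% and CAGCACC in 6.16%, and the 6 windows of the genes studied here held 1 match, to CAGCACC on the opposite strand 82 bases before the SYT4 start. The SYT4 window had a GC content of 52.8%, that of SYP 74.0% and that of STX1A 80.8%. A match is a description of letters, and whether the annotated starts are used in these cells was not examined.

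Depth was not stated in the files and was estimated from the steps between low values at 17200000 to 28700000 reads per library. At that depth 3 reads are worth 0.105 to 0.175 CPM, the depth-scaled count unit of the files, and all values of the 7 genes lay above that level. MEIS1 stood at 4.05 to 4.45 CPM for Control, 45.8 to 49.6 CPM for LV-MEIS1, 3.42 to 3.65 CPM for HOXB13ko and 29.3 to 30.1 CPM for HOXB13ko-LV-MEIS1. HOXB13, the target of the knockout, went against the label at the level of mRNA. It was 185 to 215 CPM for Control and 150 to 152 CPM for LV-MEIS1, but 307 to 347 CPM under the HOXB13ko label and 326 to 375 CPM under the HOXB13ko-LV-MEIS1 label. Every direction given for these libraries is that of their label, since no loss of the HOXB13 transcript was measured. Per the study's methods, western blot for HOXB13 protein showed a successful knockout. RNA-seq does not measure protein. All 10 luminal prostate markers searched were listed, with a summed level of 3474 to 3588 CPM for Control, 2600 to 2634 CPM for LV-MEIS1, 3772 to 3789 CPM in HOXB13ko and 3778 to 3918 CPM in HOXB13ko-LV-MEIS1. Of 8 neuroendocrine markers only CHGB, ENO2 and SCG2 were listed, and those not listed included the defining genes CHGA, INSM1, NCAM1 and NEUROD1. Of 4 leukocyte markers 0 were listed.

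SYT4, a synaptotagmin of dense-core vesicles whose first calcium-binding domain binds calcium poorly, had a separate level in each of the 4 groups (ENSG00000132872, GRCh38 chromosome 18, 43267892 to 43277535). Its levels were 154.9, 143.5 and 136.6 CPM in Control and 75.0, 68.3 and 66.7 CPM in LV-MEIS1. Libraries with the HOXB13ko label stood at 191.6, 193.3 and 194.4 CPM, whereas the HOXB13ko-LV-MEIS1 label went with 240.5, 249.8 and 243.0 CPM. No group overlapped another, with HOXB13ko-LV-MEIS1 highest, then HOXB13ko, Control and LV-MEIS1. LV-MEIS1 was 2.07-fold lower than Control, a difference of -1.05 ± 0.06 (SE, n = 3 per group) on the log2(CPM + 0.5) scale used for all log2 values, whereas HOXB13ko-LV-MEIS1 was 1.27-fold higher than HOXB13ko, a log2 difference of 0.34 ± 0.06. MEIS1 libraries thus lay below their partner in the first pair of lines and above it in the second.

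SYT7, a slow calcium sensor of high affinity that also serves lysosome and granule release, was highest in Control (ENSG00000011347, chromosome 11, 61513714 to 61581148). Control had 46.7, 50.1 and 49.4 CPM, and LV-MEIS1 had 10.29, 10.27 and 10.81 CPM. Libraries with the HOXB13ko label stood at 34.3, 31.6 and 30.7 CPM, whereas the HOXB13ko-LV-MEIS1 label went with 28.9, 33.9 and 33.2 CPM. The 2 lines with the knockout label overlapped each other and lay between Control and LV-MEIS1. The level was 4.66-fold lower in LV-MEIS1 than in Control, a log2 difference of -2.17 ± 0.07 (SE, n = 3 per group), and 1.51-fold lower in HOXB13ko than in Control, a log2 difference of -0.59 ± 0.07. Adding MEIS1 to the HOXB13ko line went with a log2 difference of -0.01 ± 0.07.

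SYT1, the fast calcium sensor of synaptic vesicles, was near the lower end of the range (ENSG00000067715, chromosome 12, 78863993 to 79452008). It had 0.999, 1.09 and 1.36 CPM in Control and 1.66, 2.21 and 1.52 CPM in LV-MEIS1. Libraries with the HOXB13ko label stood at 1.46, 1.62 and 2.12 CPM, whereas the HOXB13ko-LV-MEIS1 label went with 1.54, 0.968 and 1.52 CPM. Each group overlapped its neighbour in the order of means. Control lay below LV-MEIS1 and below HOXB13ko without overlap, with log2 differences of 0.47 ± 0.19 and 0.43 ± 0.19 (SE) for those lines against Control.

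**Figure D1:**
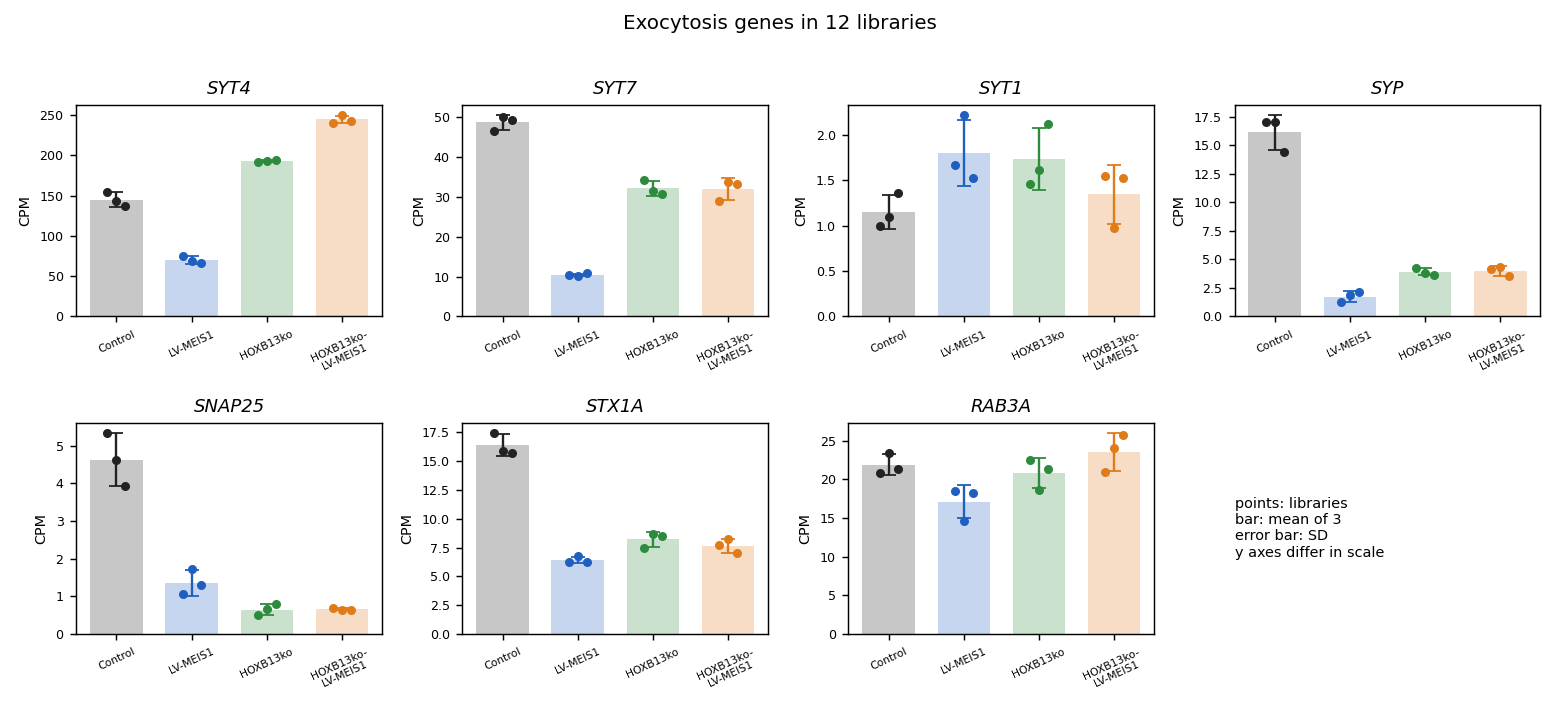
Levels in CPM of the 7 listed genes in the 12 libraries. Each panel is a gene, points are libraries, bars are means of 3, error bars are SD, and the y axes start at 0 and differ in scale. SYT7, SYP, SNAP25 and STX1A are highest in the 3 Control libraries, and SYT4 is highest in HOXB13ko-LV-MEIS1 at 240.5 to 249.8 CPM.

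SYP, the membrane glycoprotein synaptophysin, was highest in Control and lowest in LV-MEIS1 (ENSG00000102003, chromosome X, 49187815 to 49200218). Control had 17.03, 17.02 and 14.4 CPM, LV-MEIS1 had 1.24, 1.85 and 2.14 CPM, HOXB13ko had 4.25, 3.86 and 3.68 CPM, and HOXB13ko-LV-MEIS1 had 4.15, 4.35 and 3.51 CPM. The last pair overlapped and lay between the other 2 groups. Against Control the level was 9.27-fold lower in LV-MEIS1, a log2 difference of -2.91 ± 0.15 (SE, n = 3 per group), and 4.11-fold lower in HOXB13ko, a log2 difference of -1.91 ± 0.15. Between HOXB13ko-LV-MEIS1 and HOXB13ko the log2 difference was 0.02 ± 0.15. SYP shares exonic sequence with the antisense transcript SYP-AS1, and since library strand was not used in the counting, reads of the overlap cannot be assigned to either.

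The 3 neuroendocrine markers listed did not share 1 pattern. CHGB, a granin of dense-core granules, was highest in Control and lowest in LV-MEIS1, like SYP. Its mean was 6.93 ± 0.64 CPM (SD, n = 3) in Control, 0.343 ± 0.07 CPM in LV-MEIS1, 1.18 ± 0.13 CPM in HOXB13ko and 1.12 ± 0.37 CPM in HOXB13ko-LV-MEIS1. ENO2, the neuronal enolase, also had its highest mean in Control and its lowest in LV-MEIS1, with smaller relative differences. Its mean was 187.3 CPM in Control, 163.5 CPM in LV-MEIS1, 168.0 CPM in HOXB13ko and 173.1 CPM in HOXB13ko-LV-MEIS1. It ranged from 160.1 to 194.8 CPM over the 12 libraries, and Control lay above LV-MEIS1 without overlap. SCG2, another granin, was 5.19 ± 0.24 CPM in Control, 5.76 ± 0.30 CPM in LV-MEIS1, 3.61 ± 1.70 CPM in HOXB13ko and 3.19 ± 0.59 CPM in HOXB13ko-LV-MEIS1 (SD, n = 3), so its mean was highest where that of CHGB was lowest. In a bulk sample fewer cells of a kind and less RNA per cell cannot be told apart, and the part of such cells in these results was not tested.

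SNAP25, the SNARE protein of the plasma membrane that pairs with syntaxin-1, was highest in Control (ENSG00000132639, chromosome 20, 10172395 to 10308258). Control had 5.35, 4.63 and 3.93 CPM and LV-MEIS1 had 1.05, 1.73 and 1.295 CPM. Libraries with the HOXB13ko label stood at 0.498, 0.663 and 0.784 CPM, whereas the HOXB13ko-LV-MEIS1 label went with 0.683, 0.642 and 0.638 CPM. Unlike for SYP, the lines with the knockout label were the lowest, and they overlapped each other. Against Control the level was 7.15-fold lower in HOXB13ko, a log2 difference of -2.16 ± 0.18 (SE), and 3.41-fold lower in LV-MEIS1, a log2 difference of -1.47 ± 0.18. The level of 0.498 CPM in 1 HOXB13ko library is under 3 times the value of 3 reads there, 0.166 CPM.

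STX1A, syntaxin-1A, had 17.5, 15.9 and 15.7 CPM in Control and 6.28, 6.74 and 6.28 CPM in LV-MEIS1 (ENSG00000106089, chromosome 7, 73699206 to 73719672). Libraries with the HOXB13ko label stood at 7.43, 8.72 and 8.47 CPM, whereas the HOXB13ko-LV-MEIS1 label went with 7.74, 8.22 and 7.004 CPM. The order of groups was that of SYT7, with the lines labelled HOXB13ko and HOXB13ko-LV-MEIS1 overlapping and LV-MEIS1 just below both. Against Control the log2 difference was -1.28 ± 0.10 in LV-MEIS1 (2.54-fold lower) and -0.96 ± 0.10 in HOXB13ko (1.99-fold lower, SE, n = 3 per group).

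RAB3A, the GTPase that tethers vesicles through RIM proteins, had the smallest span of group means, 0.45 on the log2 scale against 0.47 for SYT1 (ENSG00000105649, chromosome 19, 18196784 to 18204042). Control had 20.9, 23.4 and 21.3 CPM, LV-MEIS1 had 18.4, 14.6 and 18.3 CPM, HOXB13ko had 22.5, 18.7 and 21.4 CPM, and HOXB13ko-LV-MEIS1 had 20.9, 24.0 and 25.8 CPM. LV-MEIS1 lay below each of the other groups and those overlapped one another. The log2 difference of LV-MEIS1 against Control was -0.35 ± 0.10 (SE, 1.28-fold lower). RAB3A shares exonic sequence with MPV17L2 on the opposite strand, and their reads cannot be told apart there. Exons of SNAP25 and SYT7 overlap lncRNAs on the same strand and those of SYT1 an lncRNA on the opposite strand. The same limit applies to their values. Below it also applies to STXBP6 (an opposite-strand lncRNA), RIMS4 (KCNK15, opposite strand), LIN7A (ACSS3, opposite strand) and ESYT1 (ZC3H10, same strand). Exons of VAMP2 and RAB3IP overlap other protein-coding genes on the same strand, and those of SYT15 and SYT17 overlap lncRNAs, with the same limit.

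Set side by side, LV-MEIS1 lay below Control without overlap for 6 of the 7 genes and above it for SYT1, where 25.1% of all genes lay below without overlap and 26.3% above. HOXB13ko lay below Control for SYT7, SYP, SNAP25 and STX1A, above it for SYT4 and SYT1, and overlapped it for RAB3A (all genes, 23.1% below and 21.8% above). These comparisons share the Control libraries. Between HOXB13ko-LV-MEIS1 and HOXB13ko, 6 of the 7 overlapped and SYT4 was higher (all genes, 10.6% higher and 10.6% lower without overlap). HOXB13ko-LV-MEIS1 lay above LV-MEIS1 for SYT4, SYT7, SYP, STX1A and RAB3A, below it for SNAP25, and overlapped it for SYT1 (all genes, 28.2% above and 30.1% below). SYT4 was 3.49-fold and SYT7 3.06-fold higher in that comparison.

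Genes were called with limma's treat test of a fold change beyond 1.5 at an adjusted p under 0.05 over all genes. By this rule 5 of the 7 genes were called in LV-MEIS1 against Control (all lower, 3.99% of all genes, 2.24% lower and 1.75% higher), 2 in HOXB13ko against Control (both lower, against 1.41% of all genes, 0.76% lower and 0.652% higher), 0 in HOXB13ko-LV-MEIS1 against HOXB13ko (0.00717% of all genes), 2 in HOXB13ko-LV-MEIS1 against LV-MEIS1 (both higher, against 6.71% of all genes, 3.29% higher and 3.42% lower) and 4 in the difference of the MEIS1 effects (all lower, against 2.93% of all genes, 1.62% lower and 1.31% higher). The 1 gene of all called in the third comparison was MEIS1 itself. The 0 of the third comparison stood beside 0 of the 7 at an unadjusted treat p under 0.05 and 1, SYT4, with limma's eBayes test against no change (0.0645% and 0.0502% of all genes). That eBayes test called 6 of the 7 in LV-MEIS1 against Control (44.5% of all genes), 5 in HOXB13ko against Control (32.9%), 5 in HOXB13ko-LV-MEIS1 against LV-MEIS1 (50.1%) and 7 in the difference (34.2%). Because the genes were chosen with these differences known, the counts carry no weight of their own.

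**Figure D2:**
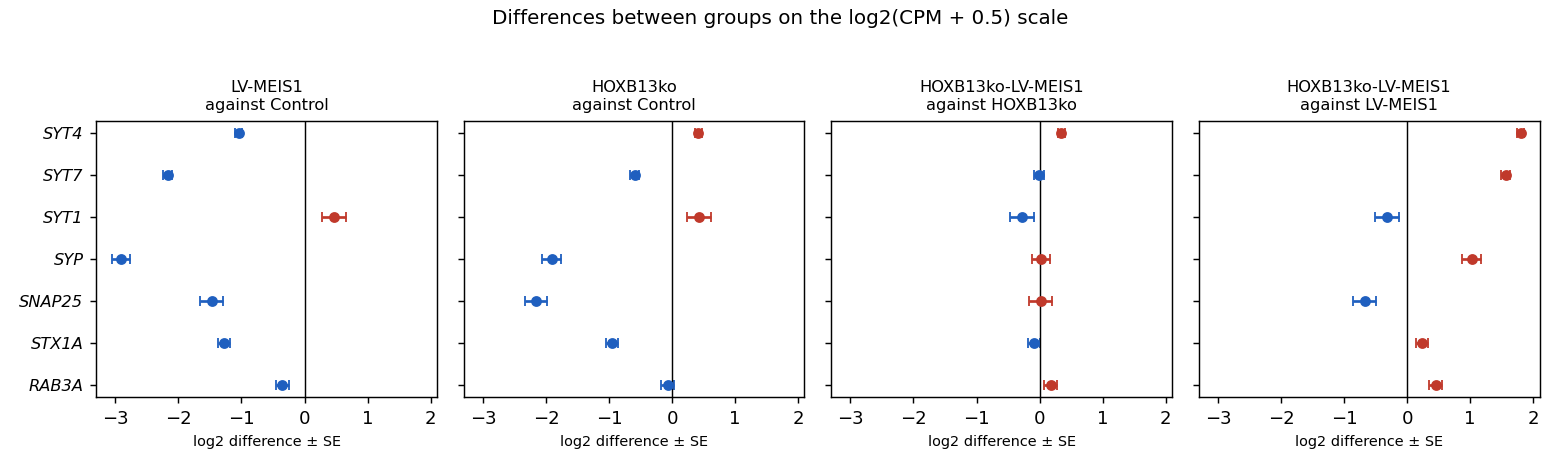
Log2 differences of the 7 genes in 4 comparisons on the log2(CPM + 0.5) scale. Points are estimates from the fit over 12 libraries, bars are SE, and blue and red mark values below and above 0. In HOXB13ko-LV-MEIS1 against HOXB13ko the values run from -0.28 (SYT1) to 0.34 (SYT4), against -2.91 (SYP) to 0.47 (SYT1) in LV-MEIS1 against Control.

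To place these genes in the wider pathway, a list of 123 further exocytosis genes in 7 functional classes was drawn up, of which 86 were listed. This list was also chosen with earlier results of these data known, so its shares beside those of all genes are a description. The comparison of LV-MEIS1 with Control, which asks what differs between a line with exogenous MEIS1 and Control when HOXB13 is not targeted, called 5 of the 86 (5.81%, against 3.99% of all genes). SYTL5 and STXBP6 rose, CPLX2, UNC13A and SCAMP5 fell, and 81 did not pass. The median log2 difference of the 86 was 0.10, and that of all genes was 0.01. By class, 1 of 13 synaptotagmin relatives, 3 of 19 SNARE regulators and priming factors and 1 of 9 vesicle membrane proteins and transporters were called. Of the 12 further SNARE proteins, 14 RAB3 and RAB27 GTPases and partners, 10 active zone genes and 9 exocyst genes, 0 were called by treat, with 0, 1, 1 and 0 at an unadjusted p under 0.05 and 5, 7, 4 and 5 with limma's eBayes (6.49% and 44.5% of all genes).

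CPLX2, complexin-2, which binds assembled SNARE complexes, had 8.08, 8.43 and 9.64 CPM in Control and 0.0553, 0 and 0 CPM in LV-MEIS1. The LV-MEIS1 values lie below the value of 3 reads in those libraries, 0.111 to 0.166 CPM, and the ratio of the estimated reads, 584 against 1, was 585 with an exact 95% interval of 104.6 to 23151 that covers counting error only. UNC13A, the priming factor Munc13-1, fell from 65.9 ± 3.21 to 22.4 ± 1.81 CPM (SD, n = 3), a log2 difference of -1.54 ± 0.07 (SE, limma treat adjusted p = 1.2e-07). SCAMP5, a secretory carrier membrane protein, fell from 13.3 ± 0.53 to 3.79 ± 0.33 CPM, a log2 difference of -1.68 ± 0.10 (adjusted p = 1.4e-06). It lies on chromosome 15 from 74957219 to 75021495, and the 106 other genes from there to the distal end whose mean reached 5 CPM had a median log2 difference of -0.57 with 102 of them lower, against a median of 0.05 for 250 genes before it. The part of this shared shift in the SCAMP5 value was not tested.

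The 2 genes that rose were SYTL5, a RAB27-binding synaptotagmin-like protein, and STXBP6, amisyn, a binding partner of syntaxin-1. SYTL5 had 4.71, 4.11 and 4.70 CPM in Control and 12.3, 12.9 and 11.7 CPM in LV-MEIS1, a log2 difference of 1.36 ± 0.10 (SE, limma treat adjusted p = 6.8e-05). STXBP6 rose from 10.29 ± 1.02 to 26.2 ± 1.04 CPM (SD, n = 3), a log2 difference of 1.31 ± 0.11 (adjusted p = 3.8e-04). Neither group of libraries overlapped the other for these genes. The most abundant gene of each class by CPM did not pass treat: ESYT1 differed by 0.05 ± 0.06, VAMP2 by -0.14 ± 0.06, UNC13B by 0.29 ± 0.05, RAB3IP by 0.16 ± 0.07, SYNGR2 by -0.05 ± 0.07, LIN7A by 0.40 ± 0.06 and EXOC5 by 0.20 ± 0.08 on the log2 scale. VAMP2 encodes the vesicle SNARE that pairs with STX1A and SNAP25, and it was 93.3 ± 4.63 (SD) in Control and 84.5 ± 5.17 in LV-MEIS1, both in CPM.

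**Figure D3:**
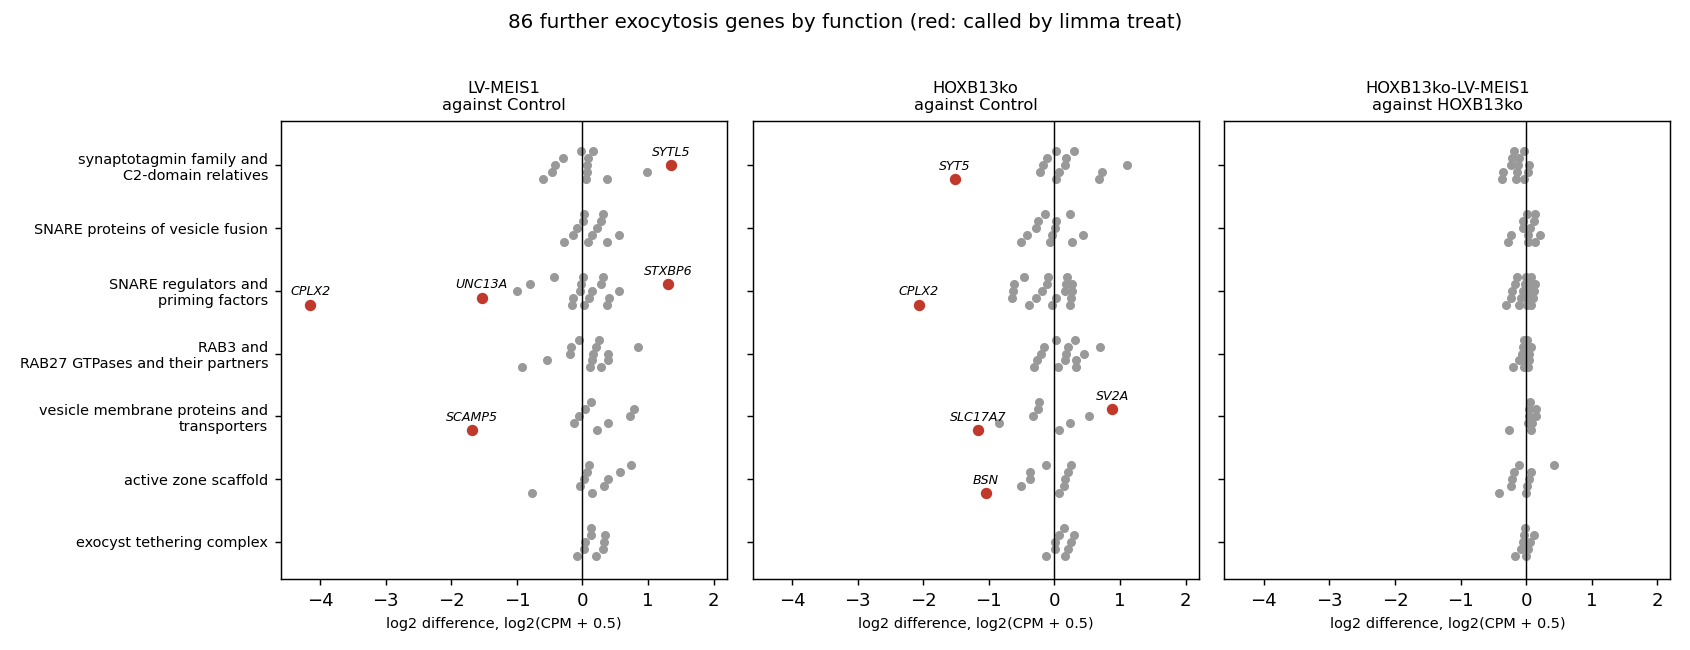
Log2 differences of the 86 further exocytosis genes in 3 comparisons, by functional class. Each point is a gene, red points with names were called by limma treat, and vertical position within a class only separates points. The counts called are 5, 5 and 0 from left to right.

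The comparison of HOXB13ko with Control, which asks what went with the knockout label alone, also called 5 of the 86 (5.81%, against 1.41% of all genes), and CPLX2 was the 1 gene called in both. The medians were 0.03 for the list and -0.0017 for all genes. SV2A, a glycoprotein of synaptic vesicles, rose from 104.3, 110.4 and 103.0 CPM in Control to 200.6, 192.3 and 195.5 CPM in the libraries labelled HOXB13ko, a log2 difference of 0.89 ± 0.04 (SE, limma treat adjusted p = 6.8e-04). SYT5, a synaptotagmin of dense-core vesicles, fell from 6.34 ± 0.90 to 1.90 ± 0.39 CPM (SD, n = 3), a log2 difference of -1.52 ± 0.16 (adjusted p = 0.0031). SLC17A7, the vesicular glutamate transporter VGLUT1, fell from 17.1 ± 1.46 to 7.34 ± 0.28 CPM (adjusted p = 5.2e-04). CPLX2 fell to 1.77, 1.61 and 1.71 CPM, a log2 difference of -2.07 ± 0.17 (adjusted p = 4.9e-05). BSN, the active zone scaffold bassoon, fell from 17.4 ± 0.92 to 8.18 ± 0.63 CPM (adjusted p = 0.016), and this call was lost without any of 3 single libraries (replicate 2 of Control, replicates 1 and 2 of HOXB13ko), with an adjusted p of up to 0.092 over the alternatives.

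Among the other synaptotagmins, SYT12, SYT15 and SYT17 were listed, and limma treat called none of them in the 5 comparisons. By limma's eBayes against no change, SYT12 passed in LV-MEIS1 against Control (adjusted p = 0.029), HOXB13ko against Control (0.0055) and HOXB13ko-LV-MEIS1 against LV-MEIS1 (1e-04), SYT15 passed in the last of these (0.042), and SYT17 passed in none. SYT12 was 2.13 ± 0.50 CPM in Control, 1.40 ± 0.26 CPM in LV-MEIS1, 3.68 ± 0.29 CPM in HOXB13ko and 3.34 ± 0.17 CPM in HOXB13ko-LV-MEIS1 (SD, n = 3). SYT15 ranged from 12.98 to 18.2 CPM over the 12 libraries, and a near-identical copy of it in the genome makes its value uncertain. SYT17 ranged from 19.1 to 22.6 CPM.

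HOXB13ko-LV-MEIS1 against HOXB13ko, which asks what differs with exogenous MEIS1 in the lines with the knockout label, called 0 of the 86 by limma treat, with 0 at an unadjusted p under 0.05 and 0 with limma's eBayes (0.00717% of all genes by treat and 0.0502% by eBayes). The share of all genes by treat is MEIS1 alone. The log2 differences of the 86 ran from -0.41 to 0.42, with a median of -0.01. CPLX2 differed by -0.03 ± 0.17 (SE), UNC13A by -0.15 ± 0.07, SYTL5 by -0.15 ± 0.10, STXBP6 by 0.07 ± 0.11 and SCAMP5 by 0.09 ± 0.10.

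HOXB13ko-LV-MEIS1 against LV-MEIS1, which compares the lines that both carry exogenous MEIS1, called 12 of the 86 (13.95%, against 6.71% of all genes), 5 higher and 7 lower. The median of the list was -0.08, and that of all genes was -0.02. Higher in HOXB13ko-LV-MEIS1 were SYTL2, CPLX2, RIMS4, SV2A and SCAMP5. Lower were SYT5, SYTL5, STXBP6, BAIAP3, RAB3B, SYPL2 and SLC17A7. SYT5 stood at 1.93, 1.78 and 1.43 CPM against 12.6, 11.1 and 15.7 CPM in LV-MEIS1, a log2 difference of -2.62 ± 0.16 (SE, limma treat adjusted p = 2.1e-07). SYPL2, a relative of synaptophysin, had 0.644 ± 0.14 against 3.69 ± 0.36 CPM (SD, n = 3, adjusted p = 3.1e-05), and so moved opposite to SYP, which was 4.001 ± 0.44 against 1.74 ± 0.46 CPM. SLC17A7 was 8.22 ± 0.55 against 28.5 ± 0.61 CPM (adjusted p = 6.4e-08). SCAMP5 was 11.3 ± 1.01 against 3.79 ± 0.33 CPM (adjusted p = 1.2e-05), and its 106 neighbours towards the distal end of chromosome 15 had a median of 0.71 here, with 5 of them lower.

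RAB3B, the paralogue of RAB3A found in epithelial and endocrine cells, was 17.3 ± 0.95 CPM in HOXB13ko-LV-MEIS1 against 35.7 ± 3.39 CPM (SD, n = 3) in LV-MEIS1, a log2 difference of -1.02 ± 0.09 (SE, limma treat adjusted p = 0.0026). RAB3A lay on the other side, at 23.6 ± 2.46 against 17.1 ± 2.16 CPM. BAIAP3, a Munc13-related protein, was 17.5 ± 2.12 against 41.6 ± 4.18 CPM (adjusted p = 1.7e-04), and its exons overlap those of TSR3 on the opposite strand. RIMS4 was 2.22 ± 0.32 against 0.563 ± 0.20 CPM (adjusted p = 0.019) and SYTL2 263 ± 10.8 against 148 ± 13.2 CPM (adjusted p = 0.049). RIMS4 was lost without replicate 3 of LV-MEIS1, without replicate 2 of HOXB13ko-LV-MEIS1 and with a pseudocount of 1 (adjusted p over all alternatives 0.0051 to 0.11), and SYTL2 under 10 of 19 alternatives (0.025 to 0.28), among them leaving out replicate 3 of Control, 1 or 3 of LV-MEIS1, 2 of HOXB13ko or any of HOXB13ko-LV-MEIS1.

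**Figure D4:**
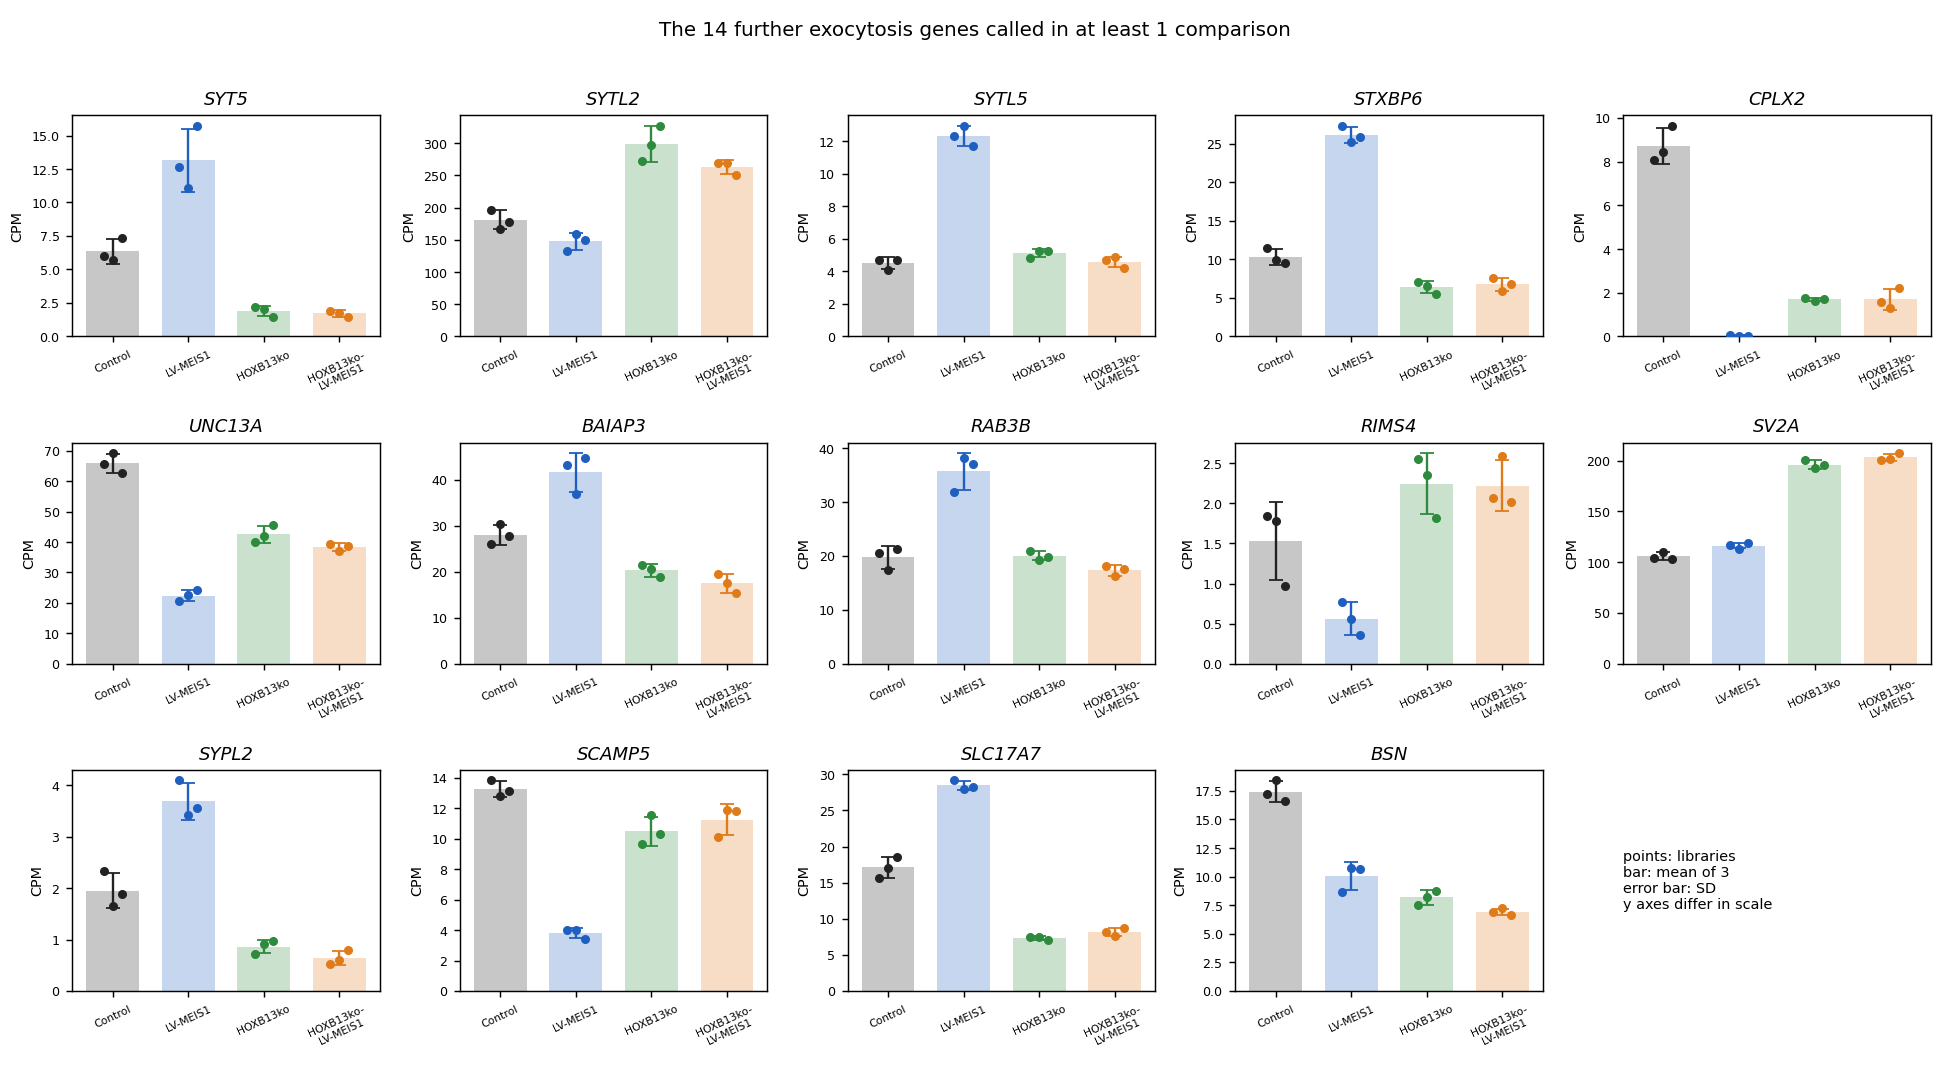
Levels in CPM of the 14 further exocytosis genes called in at least 1 comparison. Points are libraries, bars are means of 3, error bars are SD, and the y axes start at 0 and differ in scale. CPLX2 is at 0 to 0.0553 CPM in LV-MEIS1 and at 1.28 to 9.64 CPM elsewhere.

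Of the 7 genes, 5 had group means that spanned at least 1 on the log2 scale, and for each of these the genes with the nearest course over the 12 libraries were sought among 13901 genes whose mean reached 1 CPM. The measure was the root mean square difference of centred log2 values, which also depends on the groups and libraries that all genes share. Nearest to SYT4 were KBTBD11 (0.12), CD44 (0.12), an adhesion receptor for hyaluronan, and ZNF835 (0.12). Among the 3 nearest to SYT7 were CACNG4 (0.12) and VWA2 (0.14). Mean CACNG4 was 3.82 CPM for Control, 0.371 CPM for LV-MEIS1, 2.03 CPM for HOXB13ko and 2.22 CPM for HOXB13ko-LV-MEIS1.

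Nearest to SYP were AP3B2 (0.23), the neuronal subunit of the AP-3 vesicle coat, RGS1 (0.24) and EPHA4 (0.25), and nearest to SNAP25 were STMN3 (0.28), a neuronal stathmin, DKK1 (0.30) and SYNPO2 (0.33). Mean AP3B2 was 8.32 CPM for Control, 0.545 CPM for LV-MEIS1, 1.65 CPM for HOXB13ko and 1.21 CPM for HOXB13ko-LV-MEIS1. STX1A lay nearest to ELF5 (0.10), CELSR3 (0.12) and DOCK4 (0.12). The larger distances for SYP and SNAP25 stand beside larger spreads between replicates, with pooled SDs of 0.19 and 0.19 on the log2 scale against 0.07 for SYT4, 0.08 for SYT7 and 0.09 for STX1A.

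Per kilobase of merged annotated exon, the mean level over the 12 libraries was highest for SYT4, at 37.9 CPM per kb, followed by RAB3A at 11.7, SYT7 at 4.08, STX1A at 2.62, SYP at 0.925, SYT1 at 0.159 and SNAP25 at 0.0896 CPM per kb. The annotated exons of SNAP25 sum to 20.4 kb, against 1.79 to 9.46 kb for the others, which lowers its value on this scale. The order was not the same in each group. In Control SNAP25 stood above SYT1, at 0.228 against 0.121 CPM per kb, and in LV-MEIS1 STX1A stood above SYT7, at 1.74 against 1.38 CPM per kb. Within HOXB13ko and HOXB13ko-LV-MEIS1 the order was that of the mean over all libraries.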

How the data were processed

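RNA-seq libraries of CWR22Rv1 derivatives were made from poly-A RNA with a stranded kit and sequenced as single-end reads. Per the labels and the study's methods, the authors trimmed reads with Trimmomatic 0.38, pseudo-aligned them to GRCh38 transcripts with kallisto 0.43.1 without a strand setting, summed estimated counts to genes, removed genes with few counts and deposited CPM values normalised in edgeR 3.22.2. Depth is not stated. Steps between low CPM values gave 17200000 to 28700000 reads per library, and 47.5% to 60.6% of values under 1 CPM lay within 0.1 step of a whole multiple, so whole reads could not be recovered for the table and genes were not tested with a count model. Only the CPLX2 ratio uses reads, estimated as CPM divided by the step, summed over the group and rounded, and its interval takes them as counts. The 42 rows that repeated another row were left out.

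Tests used log2(CPM + 0.5) with limma 3.58.1 under R 4.3.3. The 12 libraries entered a single fit with a mean for each group and no replicate term, and fold changes on this scale understate those of low genes. Genes were called by treat at a fold change of 1.5 and a Benjamini-Hochberg adjusted p under 0.05 over 13951 genes in 5 comparisons. The difference of the MEIS1 effects is LV-MEIS1 against Control minus HOXB13ko-LV-MEIS1 against HOXB13ko. On data simulated for LV-MEIS1 against Control, 97% of genes changed 4-fold, 43% changed 2-fold and 0 unchanged genes were called. There the changed genes had a mean of at least 1 CPM and all genes had the same dispersion. These shares need not hold for the measured libraries. The genes and lists were chosen with earlier results of these data known. Further genes were named when called in any comparison, when most abundant of their class by CPM, when a synaptotagmin, or when among the 3 nearest in course, and some that met these rules are not reported here. Alternatives were other pseudocounts, a minimum CPM, 2 scalings, a replicate block, eBayes, fits of the compared groups alone and leaving out each library. Positions are from GENCODE on GRCh38 and promoters from RefSeq. Figures used matplotlib 3.10.9.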

Additional observations from a re-analysis of the deposited data

Results flagged for a closer look

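The change with exogenous MEIS1 differed between the line pairs without and with the knockout label for 6 of the 86 further exocytosis genes. By limma's treat test of the difference itself, this was 6.98%, against 2.93% of all genes. The difference in log2 change was -4.13 for CPLX2 (adjusted p = 1.2e-07), -1.78 for SCAMP5 (4.8e-05), -1.39 for UNC13A (6e-05), 1.501 for SYTL5 (6e-04), 1.24 for STXBP6 (0.021) and 1.04 for RAB3B (0.047). The 106 neighbours of SCAMP5 had a median of -0.57, and their part in its value was not tested. The CPLX2 value depends on the pseudocount, since LV-MEIS1 lay below the value of 3 reads. STXBP6 was lost without any of 6 single libraries, which were replicate 3 of Control, 1 and 3 of LV-MEIS1, 1 and 2 of HOXB13ko and 2 of HOXB13ko-LV-MEIS1 (adjusted p over the alternatives 0.0094 to 0.065) and RAB3B under 13 of 18 alternatives (0.019 to 0.14), among them leaving out any library other than replicate 3 of Control or 1 of LV-MEIS1. Each group is 1 derived line, so an effect of MEIS1 cannot be told apart from other differences between the lines. MEIS1 itself had a mean of 47.4 CPM in LV-MEIS1 and 29.7 CPM in HOXB13ko-LV-MEIS1. All 6 differences involve lines with the knockout label, in which HOXB13 mRNA was higher than in Control. The study reports that knockout from a western blot for protein.

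SYT4 moved in opposite directions in the 2 pairs. Each of the LV-MEIS1 libraries was lower than each of the Control libraries, and all HOXB13ko-LV-MEIS1 libraries lay above all HOXB13ko libraries, a difference of -1.38 in log2 change. It is among the 4 differences of the 7 listed genes that limma treat called, and it is given without a p-value because SYT4 was chosen with it known.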

How the results depend on the processing

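Of 28 calls among the further exocytosis genes over the 5 comparisons, 23 held under every alternative tried and 0 changed sign. The calls lost were those of BSN, RIMS4, SYTL2, STXBP6 and RAB3B described with their values. With limma's eBayes against no change, the further exocytosis genes called numbered 44 in LV-MEIS1 against Control, 45 in HOXB13ko against Control, 47 in HOXB13ko-LV-MEIS1 against LV-MEIS1 and 31 in the difference of the MEIS1 effects, and all genes called numbered 6207, 4590, 6993 and 4771. In HOXB13ko-LV-MEIS1 against HOXB13ko eBayes called 7 genes, and of the 7 listed synaptotagmin and exocytosis genes it called 5 in HOXB13ko against Control, 1 in HOXB13ko-LV-MEIS1 against HOXB13ko, 5 in HOXB13ko-LV-MEIS1 against LV-MEIS1 and 7 in the difference. This test has no fold threshold. The 1 gene called in HOXB13ko-LV-MEIS1 against HOXB13ko was MEIS1 itself. The count became 2 with a pseudocount of 0.1, with the replicate block and in the fit of the compared groups alone, and 1 to 2 without single libraries (2 without replicate 1 or 2 of Control). Why the count rose was not tested. Replicate numbers did not pair the libraries: correlations of deviations between same-numbered libraries ran from -0.30 to 0.23 over 18 pairs, 2 of them above 0.1. Between differently numbered libraries they ran from -0.37 to 0.37 over 36 pairs, 14 of them above 0.1. Whether a factor under another numbering was shared between groups was not tested. The replicate block changed the calls of SYTL2 and RAB3B among the further genes. Scalings moved the median of all genes by at most 0.04. Values under about 1 CPM, as for SNAP25 in HOXB13ko, rest on few reads, and its log2 difference against Control ran from -2.67 to -1.77 over the alternatives.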
